A study of Mus musculus with 9 samples.

Results

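The genes described here are tau, *Mapt*, and 9 other genes of the neuronal microtubule system, *Map1a*, *Map1b*, *Map2*, *Map4*, *Map6*, *Stmn2*, *Stmn3*, *Tubb3*, and *Tubb2b*. They were chosen by symbol, starting from the higher level of *Mapt* in *Rbbp4* mutant embryonic stem cells (ESCs), to ask whether related genes were higher as well. The counted table holds 25239 gene symbols, these 10 included, and each of the 10 passed the filter on low counts that left 14125 genes for the fit. Because *Mapt* was picked for its difference from the control, the values of these genes in each mutant against the control are a description. No p-value is given for them, and nothing is read from how many were past a threshold. The rule for the choice did not use the difference between the mutants, which was tested, although earlier results of these data were known.

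RNA-seq was performed on E14 mouse ESCs (strain 12910la in the labels), which were grown with serum and leukemia inhibitory factor, and no treatment or differentiation is named. The control was Rbbp4+/+. The Rbbp4Ins/Ins line carries a short in-frame insertion in *Rbbp4*, made with CRISPR-Cas9, on both alleles, and the Rbbp4Ins/Del line carries the insertion on one allele and a short in-frame deletion on the other. *Rbbp4* encodes a histone-binding subunit of the chromatin complexes PRC2 and NuRD. Each mutant is a single clone, so the mutation and other differences of that clone cannot be told apart, and each line had 3 libraries. *Rbbp4* itself changed by -44.0% in Ins/Ins and 3.54% in Ins/Del, which does not check an in-frame edit. Control replicate 2 stood somewhat apart from its line, with a chi-square per gene of 4.62 and 3.89 against the other control libraries, beside 1.87 to 2.62 for all other pairs within a line. Its share of *Rn45s* reads was 1.4%, beside 2.04% to 2.6% in the other 8 libraries. Without it, *Mapt* had log2 fold changes of 3.81 in Ins/Ins and 3.98 in Ins/Del, and of the 10 genes *Stmn3* alone changed its side of the threshold.

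Microtubules are hollow polymers of alpha- and beta-tubulin dimers that grow and shrink at their ends. Structural microtubule-associated proteins bind along the polymer and stabilise or bundle it, stathmins bind free tubulin and favour disassembly, and tubulin isotypes differ mostly in their acidic tails, where many proteins and enzymes bind. In neurons tau is enriched in axons and MAP2 in dendrites, while MAP4 is the relative found in most other cells. Tau is best known for the aggregates it forms in Alzheimer's disease, and Tubb3 and MAP2 are common markers of neurons. ESCs are not neurons, and low RNA levels of neuronal genes in them are measured over a whole culture. In such bulk samples, fewer cells of a type and less RNA per cell cannot be told apart.

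*Mapt*, *Map2*, and *Map4* form one family, whose C-terminal repeats bind microtubules. A window of 93 coding bases from the conserved repeat region is shown because it is the part the 3 genes share, although their RNAs went in different directions. It was read from the mouse genome build GRCm38 (mm10), and in each gene it spans an intron. For *Mapt* it lies at chr11:104322514-104328037, for *Map2* at chr1:66438340-66438857, and for *Map4* at chr9:110079867-110081906, all on the plus strand. Capitals mark bases that differ from *Mapt*.
Mapt: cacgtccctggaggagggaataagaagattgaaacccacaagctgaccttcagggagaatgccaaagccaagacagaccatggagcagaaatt
Map2: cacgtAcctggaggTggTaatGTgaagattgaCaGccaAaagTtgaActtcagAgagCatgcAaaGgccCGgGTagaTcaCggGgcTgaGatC
Map4: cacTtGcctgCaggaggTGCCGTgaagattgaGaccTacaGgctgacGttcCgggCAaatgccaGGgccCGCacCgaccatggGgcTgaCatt
Over this window *Map2* was identical to *Mapt* at 74.2% of bases and *Map4* at 73.1%. At this divergence the genes could be told apart in counting, and no word of 50 exonic bases of *Mapt* occurred in another annotated gene.

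The beta-tubulins are much closer to each other, and the last 60 coding bases encode the acidic tail. Where along the coding sequence these genes differ most was not measured. The tails are shown because *Tubb3* and *Tubb2b* differed in how far they moved, and *Tubb2a*, the neighbour and near copy of *Tubb2b*, is needed to read the *Tubb2b* counts. They lie at chr8:123421620-123421679 (plus strand) for *Tubb3*, chr13:34127474-34127533 (minus strand) for *Tubb2b*, and chr13:34074471-34074530 (minus strand) for *Tubb2a*. Capitals mark bases that differ from *Tubb3* at the same position, counted back from the end of the coding sequence. The windows were not aligned, and the coding sequence has 1350 bases in *Tubb3* and 1335 in *Tubb2b* and *Tubb2a*. Capitals can therefore come from a shift in position and do not measure how far the tails diverged.
Tubb3: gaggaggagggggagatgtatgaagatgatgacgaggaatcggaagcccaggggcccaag
Tubb2b: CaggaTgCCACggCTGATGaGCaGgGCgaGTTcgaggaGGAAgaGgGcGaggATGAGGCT
Tubb2a: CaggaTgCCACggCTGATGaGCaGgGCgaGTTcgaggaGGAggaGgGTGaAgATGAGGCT
Across the whole coding sequence *Tubb3* and *Tubb2b* were 84.5% identical, and *Tubb2b* and *Tubb2a* 96.5%. Of the 50-base words of *Tubb2b*, 36.9% occurred in other genes, mostly in *Tubb2a*, so the split of reads between these 2 genes is uncertain. *Tubb3* shared no such word with any gene.

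*Mapt* was 13.4-fold higher in Ins/Ins and 15.0-fold higher in Ins/Del than in the control, and none of the other 9 genes came near this size. *Map1a*, *Map6*, and *Tubb3* were over 2-fold higher in both mutants. *Stmn2*, *Tubb2b*, and *Map4* were higher by less than 1.4-fold, and *Map2*, *Map1b*, and *Stmn3* were lower. As a description, in each mutant 7 of the 10 genes were past the limit of the fit over all genes (adjusted p of at most 0.01) as higher and 3 as lower. Of all genes tested, 58.4% were past it in Ins/Ins (29.0% higher and 29.4% lower) and 62.5% in Ins/Del (30.6% higher and 31.9% lower). The median log2 fold change of the 10 genes was 0.31 in Ins/Ins and 0.37 in Ins/Del, beside 0.0038 and -0.011 over all genes. Without *Mapt* it was 0.31 and 0.34.

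*Mapt* lies on chromosome 11 from 104231390 to 104332090, on the plus strand. Its normalized counts were 129.9, 148.7, and 133.2 in the control libraries. They were 1834, 1795, and 1869 in Ins/Ins. They were 2105, 2048, and 2035 in Ins/Del. Each mutant library held over 10 times the highest control value, and the 3 lines did not overlap. The log2 fold change against the control was 3.74 ± 0.060 (standard error) in Ins/Ins and 3.91 ± 0.059 in Ins/Del. Only 56 of the 14125 genes had a higher log2 fold change in Ins/Ins, and 80 in Ins/Del.

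*Map2*, which encodes the dendritic relative of tau, went the other way. It lies on chromosome 1 from 66175273 to 66442583 (plus strand). The control libraries held 371.9, 406.4, and 419.0 normalized counts. The Ins/Ins libraries held 116.3, 109.5, and 112.1. The Ins/Del libraries held 79.7, 87.5, and 118.0. Every mutant library was below every control library, while the 2 mutants overlapped. The level was 3.54-fold lower in Ins/Ins (log2 fold change -1.82 ± 0.10) and 4.20-fold lower in Ins/Del (-2.08 ± 0.11). A 124-base part of its exons lies opposite an annotated antisense gene, *Gm10558*, which was not counted.

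*Map4*, the relative found in most cell types (chromosome 9, from 109931460 to 110083955, plus strand), was far more abundant and moved little. It stood at 5734 ± 18.6 normalized counts (mean ± SD of 3 libraries) for the control, 6677 ± 84.2 in Ins/Ins, and 6492 ± 67.3 in Ins/Del. All mutant libraries, from 6425 to 6738, were above all control libraries, from 5716 to 5753. The log2 fold change was 0.22 ± 0.028 in Ins/Ins and 0.18 ± 0.028 in Ins/Del. The 3 members of the tau family thus differed in direction or size in the same libraries.

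The family's make-up can be compared per length, as CPM (counts scaled to one common library size) per kilobase of exon. In the control the level of *Mapt* per kilobase was 0.75 times that of *Map2*, with a range of 0.694 to 0.799 over the 3 libraries. It was 35.6 times that of *Map2* in Ins/Ins and 48.1 times in Ins/Del. With the length of the longest annotated coding transcript in place of all exons, these ratios were 0.41, 19.4, and 26.2. Against *Map4*, *Mapt* stood at 0.0481 in the control, 0.552 in Ins/Ins, and 0.639 in Ins/Del, or 0.0277, 0.318, and 0.368 by transcript length. By either length *Map4* was the most abundant of the 3 in the mutants and the control.

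**Figure D1:**
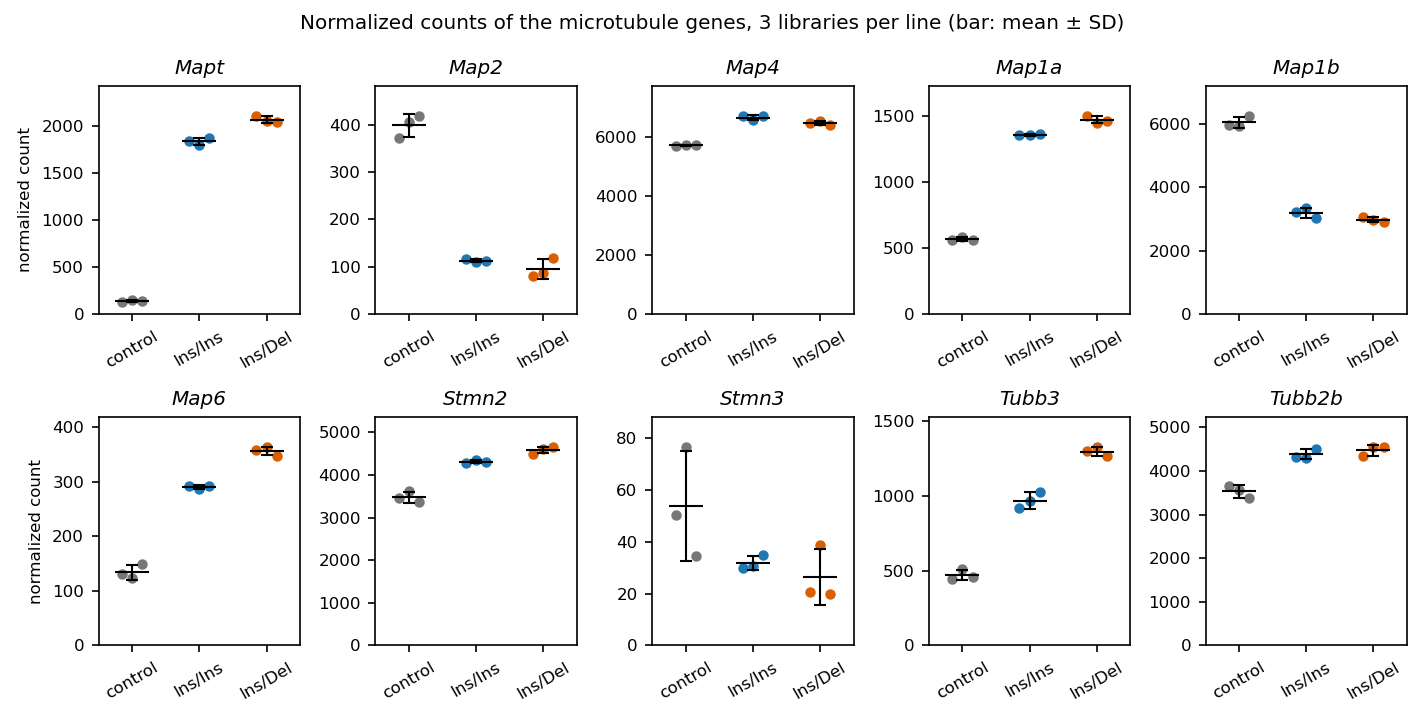
Normalized counts (vertical axis, from 0) of the 10 genes in each library of the control, Ins/Ins, and Ins/Del lines (horizontal axis), with points for the 3 libraries and a bar for the mean ± SD. *Mapt* goes from a mean of 137.3 to 1833 and 2063, while *Map2* and *Map1b* are below the control in every mutant library and *Stmn3* overlaps between the lines.

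MAP1A and MAP1B are a related pair, each made as a precursor that is cut into a heavy and a light chain, with MAP1B known as the form of early development and MAP1A as that of mature neurons. *Map1a* (chromosome 2, from 121289600 to 121310832, plus strand) held 562.5, 587.7, and 559.7 normalized counts over the control libraries. It had 1357, 1358, and 1369 in Ins/Ins. It had 1505, 1451, and 1466 in Ins/Del. It was 2.39-fold higher in Ins/Ins (log2 fold change 1.26 ± 0.048) and 2.59-fold higher in Ins/Del (1.37 ± 0.047), with no overlap between the lines. On 2.24% of its exonic length it lies opposite *Ppip5k1*, whose log2 fold change was 0.78 in Ins/Ins and 0.67 in Ins/Del, and since the strand setting of the counting is not given in the sources used here, reads of that stretch cannot be assigned to one gene.

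*Map1b* (chromosome 13, from 99421446 to 99516540, minus strand) was lower. The control libraries held 5978, 5926, and 6256 normalized counts. The Ins/Ins libraries held 3225, 3333, and 3023. The Ins/Del libraries held 3057, 2979, and 2893. Both mutants were clearly below the control, and one Ins/Del library lay within the range of the Ins/Ins libraries. The log2 fold change was -0.92 ± 0.034 in Ins/Ins and -1.02 ± 0.034 in Ins/Del. Per kilobase, *Map1a* stood at 0.123 of *Map1b* in the control, 0.556 in Ins/Ins, and 0.645 in Ins/Del, so *Map1b* was the more abundant of the pair in all 3 lines.

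*Map6* encodes the protein also called STOP, which protects microtubules from cold, and lies on chromosome 7 from 99267447 to 99337137 (plus strand). Its normalized counts were 129.9, 122.6, and 148.3 in the control. They were 292.5, 285.5, and 291.8 in Ins/Ins. They were 357.8, 362.7, and 347.1 in Ins/Del. The lines did not overlap, in the order control, Ins/Ins, Ins/Del. The level was 2.17-fold higher in Ins/Ins (log2 fold change 1.12 ± 0.092) and 2.66-fold higher in Ins/Del (1.42 ± 0.090). In the control *Map6* had the lowest level per kilobase of exon of the 10 genes, while by transcript length *Mapt* was lowest.

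The stathmins split in direction. *Stmn2*, also called SCG10 (chromosome 3, from 8509360 to 8561606, plus strand), held 3467, 3620, and 3365 normalized counts over the control libraries. It had 4276, 4364, and 4314 in Ins/Ins, and 4505, 4618, and 4654 in Ins/Del. All mutant libraries were above all control libraries, with log2 fold changes of 0.31 ± 0.032 and 0.40 ± 0.032. It is known as an early neuronal gene, yet it was the second most abundant of the 10 per kilobase of exon in these ESCs, the control included.

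*Stmn3* (chromosome 2, from 181306459 to 181314500, minus strand) was close to the limit of what the depth could show. It had 50.4, 76.5, and 34.6 normalized counts in the control, from 59, 73, and 32 reads. It had 29.9, 30.5, and 34.9 in Ins/Ins, and 20.4, 38.8, and 19.7 in Ins/Del. The lines overlapped, and the control libraries alone spanned from 34.6 to 76.5. The log2 fold change was -0.76 ± 0.25 in Ins/Ins and -0.99 ± 0.25 in Ins/Del. Without control replicate 2 these values were -0.44 and -0.67, neither past the threshold.

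Of the tubulins, *Tubb3* encodes the isotype used as a neuronal marker and lies on chromosome 8 from 123411424 to 123422015 (plus strand). The control libraries held 446.3, 511.2, and 458.0 normalized counts. The Ins/Ins libraries held 914.4, 961.4, and 1025. The Ins/Del libraries held 1297, 1323, and 1263. Each line was separate from the others, with Ins/Del the highest. *Tubb3* was 2.05-fold higher in Ins/Ins (log2 fold change 1.04 ± 0.058) and 2.74-fold higher in Ins/Del (1.46 ± 0.056).

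*Tubb2b* (chromosome 13, from 34126748 to 34130466, minus strand), which is abundant in developing brain, stood at 3531 ± 140 normalized counts (mean ± SD of 3 libraries) for the control. It stood at 4378 ± 115 in Ins/Ins and 4472 ± 120 in Ins/Del. The mutants, from 4299 to 4544, lay above the control, from 3375 to 3647, and overlapped with each other. The log2 fold changes were 0.31 ± 0.033 and 0.34 ± 0.033. Per kilobase, *Tubb3* stood at 0.164 of *Tubb2b* in the control, 0.271 in Ins/Ins, and 0.356 in Ins/Del. The shared reads with *Tubb2a* apply to these values.

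**Figure D2:**
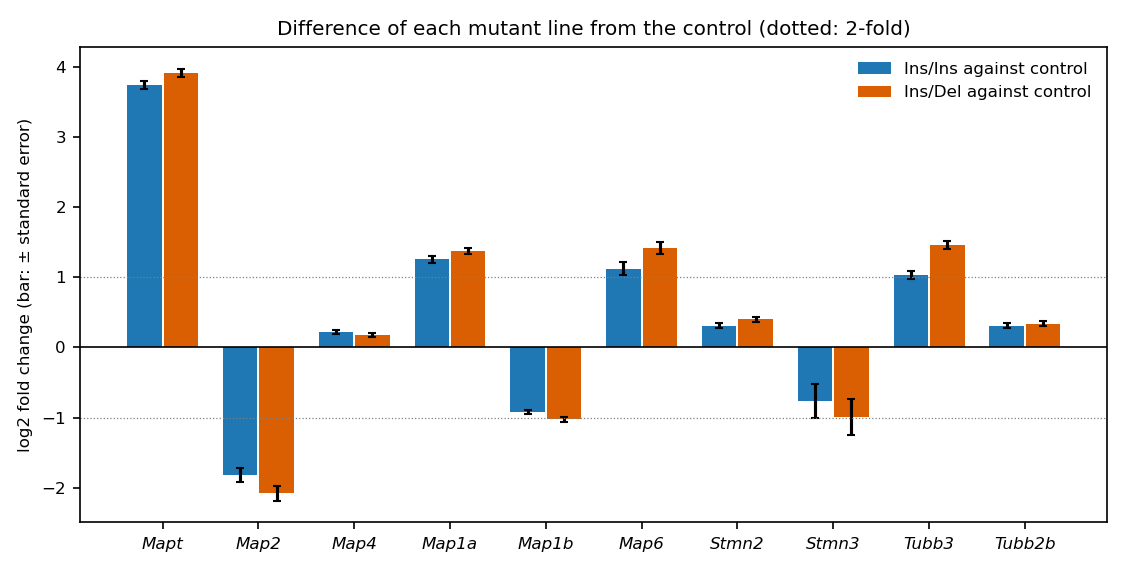
Log2 fold change (vertical axis) of the 10 genes in Ins/Ins and in Ins/Del against the control, with bars from 0, error bars of 1 standard error, and dotted lines at a 2-fold change. *Mapt* stands at 3.74 and 3.91, *Map1a*, *Map6*, and *Tubb3* are above the upper dotted line in both mutants, and *Map2*, *Map1b*, and *Stmn3* are below 0. Both comparisons use the same control libraries.

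Across the 10 genes, groups that do not overlap were found for 9 in each mutant against the control, 7 above and 2 below, with *Stmn3* overlapping. Of all genes tested, 69.1% did not overlap in Ins/Ins (34.9% above and 34.2% below) and 72.8% in Ins/Del (35.9% above and 36.9% below). Changes over 2-fold past the threshold were found as higher for 4 genes in each mutant, beside 7.0% of all genes in Ins/Ins and 8.45% in Ins/Del. They were found as lower for *Map2* in Ins/Ins and for *Map2* and *Map1b* in Ins/Del, beside 8.96% and 10.2% of all genes.

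The mutants were then compared with each other, which asks whether the 2 mutant clones differed in these genes. *Mapt*, *Map6*, and *Tubb3* were higher in Ins/Del than in Ins/Ins, and the other 7 genes did not pass the threshold. Of all 14125 genes, 10.8% passed, 6.17% as higher and 4.64% as lower. The libraries of the mutants did not overlap for 6 of the 10, 5 above and 1 below, beside 34.1% of all genes (17.4% above and 16.7% below). The difference was largest for *Tubb3*, at a log2 value of 0.42 ± 0.050 (edgeR's quasi-likelihood test, Benjamini-Hochberg adjusted p = 4.18e-08), and every Ins/Del library was above every Ins/Ins library. For *Map6* it was 0.30 ± 0.078 (edgeR adjusted p = 0.00583), also with no overlap. For *Mapt* it was 0.17 ± 0.039 (edgeR adjusted p = 0.00147), 1.13-fold, a small step beside the difference of both lines from the control.

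The call for *Tubb3* held without any single library. The call for *Map6* was lost when any one of the 6 mutant libraries was left out and with DESeq2 (adjusted p = 0.0289), and over the alternatives that lost it the adjusted p ranged from 0.0128 to 0.0323. The call for *Mapt* was lost without Ins/Ins replicate 2 (adjusted p = 0.0122) or Ins/Del replicate 1 (adjusted p = 0.0149), each of which left 1 of the 10 genes past the threshold. None of these alternatives changed a direction.

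Of the 7 genes that did not pass, *Stmn2* (log2 difference 0.09, edgeR adjusted p = 0.0405), *Map1a* (0.11, adjusted p = 0.0493), and *Map1b* (-0.10, adjusted p = 0.0412) were between 0.01 and 0.05. For *Map4* the 95% interval of the log2 difference was -0.095 to 0.014, and for *Tubb2b* it was -0.034 to 0.095. For *Map2* it was -0.52 to -0.0045 (edgeR unadjusted p = 0.0535, adjusted p = 0.17). For *Stmn3* it was wide, from -0.78 to 0.32. The intervals of *Map4* and *Tubb2b* lie close to 0, while that of *Stmn3* leaves room for a change of over 1.5-fold in the lower direction.

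Levels of different genes were compared per kilobase of exon. In the control the order was *Tubb2b* (84.3 CPM per kilobase), *Stmn2* (34.1), *Map1b* (20.9), *Map4* (20.7), *Tubb3* (13.8), *Stmn3* (2.60), *Map1a* (2.57), *Map2* (1.33), *Mapt* (0.999), and *Map6* (0.80). The ranges of *Map1b* and *Map4* overlapped, as did those of *Stmn3* and *Map1a*, and the other neighbours in this order were apart. *Mapt* moved from the ninth place in the control to the fifth in both mutants, at 13.3 ± 0.27 (SD, n = 3) in Ins/Ins and 15.0 ± 0.27 in Ins/Del, and passed *Map1b*. *Map2* moved to the last place, at 0.375 ± 0.012 and 0.317 ± 0.067.

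These levels depend on the length used. With the length of the longest annotated coding transcript in place of all exons, *Stmn2* stood above *Tubb2b*, at 92.1 against 88.7 in the control, with overlapping ranges. *Mapt* then was the tenth in the control, below *Map6* with overlapping ranges, and again the fifth in both mutants. It had 1.43 CPM per kilobase in the control, 19.1 in Ins/Ins, and 21.5 in Ins/Del. The change from line to line within a gene is the same on either length.

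**Figure D3:**
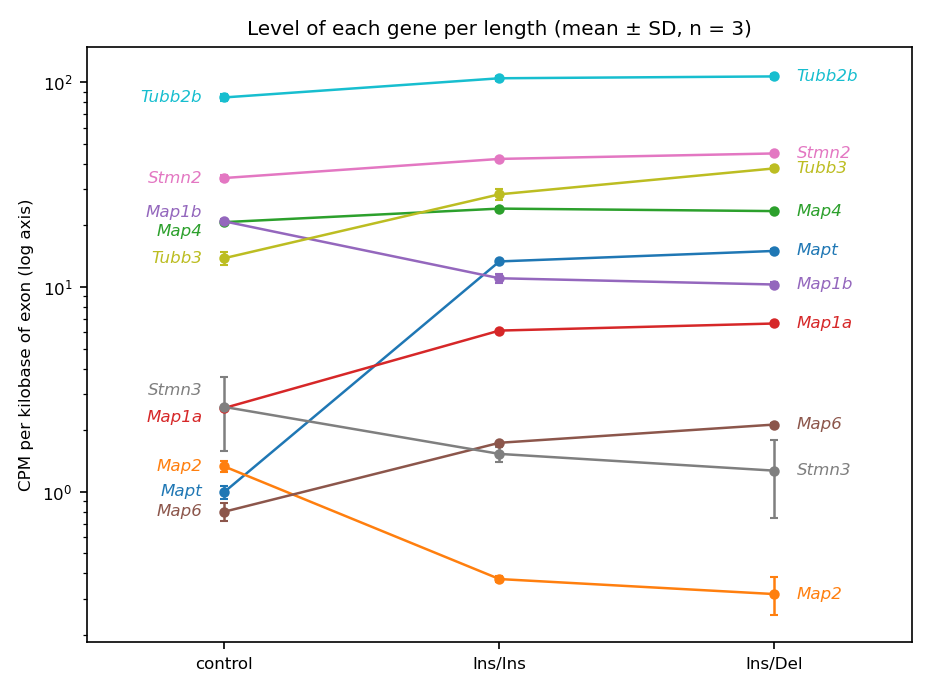
Level of each gene in CPM per kilobase of exon (vertical log axis) in the control, Ins/Ins, and Ins/Del lines, as mean ± SD of 3 libraries, with lines joining the means of a gene. The level of *Mapt* crosses those of *Map2*, *Stmn3*, *Map1a*, and *Map1b* to 13.3 and 15.0, *Map2* drops to the lowest level, and *Tubb2b* and *Stmn2* stay the highest.

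The genes whose pattern over the 9 libraries was most like that of *Mapt* were found by the root-mean-square difference in log2 CPM, each gene set to 0 at its own control mean. Of 14115 genes outside the 10, the nearest was *Tuba3a*, an alpha-tubulin gene, at a difference of 0.0876. It stood at 298.8 ± 8.92 normalized counts (mean ± SD of 3 libraries) for the control, 3808 ± 38.4 in Ins/Ins, and 4741 ± 113 in Ins/Del, or log2 fold changes of 3.67 and 3.98. *Tuba3a* and its near copy *Tuba3b* are known for their expression in testis. Of the 50-base words of *Tuba3a*, 35.3% also occurred in other genes, mostly *Tuba3b*, which had 6.40 ± 1.86 normalized counts in the control, 84.5 ± 5.75 in Ins/Ins, and 157 ± 15.9 in Ins/Del.

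The next 4 were *Adgrd1*, an adhesion G protein-coupled receptor (0.147), *Rhox13*, a homeobox gene (0.214), *Fkbp6*, known for its role in male meiosis (0.218), and *Thrb*, a thyroid hormone receptor (0.222). *Thrb* rested on few reads, with 3.26 ± 1.02 normalized counts in the control. By this measure, which also counts the size of a change, none of the other 9 microtubule genes was close to *Mapt*. *Map1a* ranked 731, *Map6* 781, and *Tubb3* 793, and *Map2* ranked 13691. A correlation does not single genes out here, since 1659 of the 14115 genes had a Pearson r of at least 0.95 with *Mapt* over 9 libraries that fall into a low control and 2 high mutants. The 5 genes with the highest r shared none with the 5 above.

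**Figure D4:**
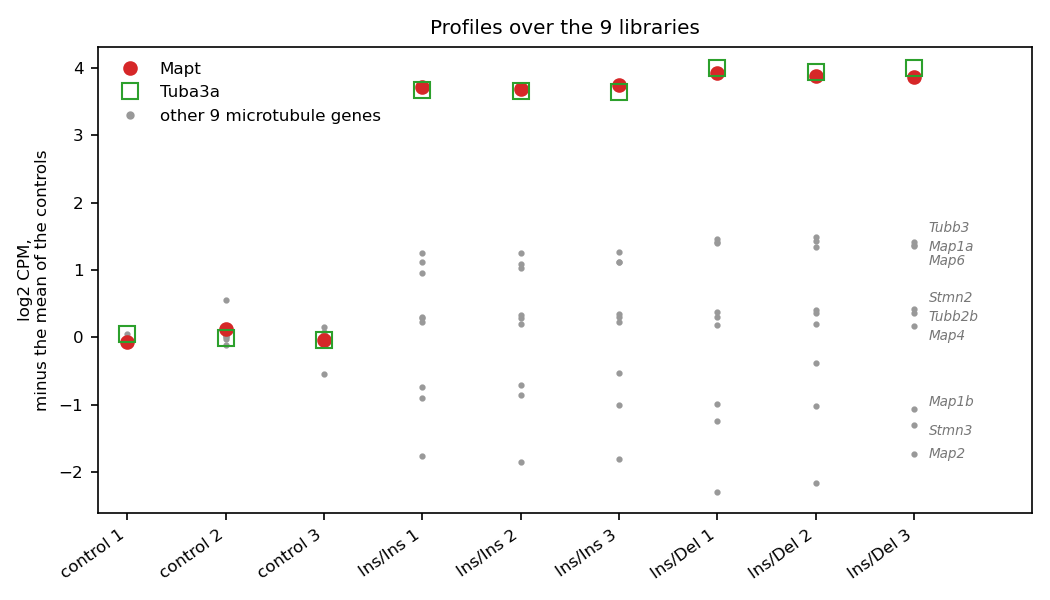
Log2 CPM minus the gene's own mean over the controls (vertical axis) in each of the 9 libraries (horizontal axis), for *Mapt* (red circles), *Tuba3a* (green squares), and the other 9 genes (grey points, named at the right). *Mapt* and *Tuba3a* lie close together in all 9 libraries. In the mutant libraries *Map1a*, *Map6*, and *Tubb3* lie well below them, and *Map2* is the lowest. In the control libraries each gene is centred on its own mean, so no order is read there.

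The genes beside *Mapt* on the chromosome had far smaller values. *Kansl1*, 1139 bases away, had log2 fold changes of 0.06 ± 0.037 (edgeR adjusted p = 0.14) in Ins/Ins and 0.10 ± 0.037 (adjusted p = 0.017) in Ins/Del. *Arf2*, the nearest tested gene on the other side, had 0.12 ± 0.088 (adjusted p = 0.241) and 0.08 ± 0.088 (adjusted p = 0.405). Over all 10 genes, 20 flanking tested genes were examined. Of these, 4 passed the threshold in both mutants in the direction of the member beside them (*Ckmt1* by *Map1a*, *Unc80* by *Map2*, *Tubb2a* and *Psmg4* by *Tubb2b*), 5 in the other direction (*Trp53bp1* by *Map1a*, *Dhx30* by *Map4*, *Mogat2* and *Serpinh1* by *Map6*, *Tcf25* by *Tubb3*), and 11 did neither. *Tubb2a* and *Tubb2b* share read-length sequence, so that pair does not count as separate values. Of all genes, 25.6% were higher and 26.7% lower in both mutants.

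A pair of promoters is shown, one of a gene that was higher, *Map1a*, and one of a gene that was lower, *Map2*. They are RefSeq windows on GRCm38.p6 of the 250 bases before the annotated start, cut where the first exon begins. Capitals mark GGGCGG or its complement CCGCCC, the core of the GC box, searched on both strands. The *Map1a* stretch is chr2:121289352-121289599 and the *Map2* stretch is chr1:66175079-66175272, both on the plus strand.
Map1a: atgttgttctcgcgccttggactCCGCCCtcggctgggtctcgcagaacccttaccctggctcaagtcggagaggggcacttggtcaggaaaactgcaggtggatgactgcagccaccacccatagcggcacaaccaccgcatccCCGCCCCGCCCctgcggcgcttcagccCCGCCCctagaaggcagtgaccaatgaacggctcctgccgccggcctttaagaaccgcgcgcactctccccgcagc
Map2: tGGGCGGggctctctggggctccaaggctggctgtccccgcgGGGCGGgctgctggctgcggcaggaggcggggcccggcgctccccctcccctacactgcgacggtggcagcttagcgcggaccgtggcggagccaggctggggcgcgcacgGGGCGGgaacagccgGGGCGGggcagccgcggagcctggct
The *Map1a* window held 4 matches, 2 of which overlap by 1 base, and the *Map2* window held 5, of which 4 are in the stretch printed. Of 32851 windows of the same length, 32.7% held at least 1. CpG dinucleotides numbered 21 in the *Map1a* window and 34 in the *Map2* window, beside a median of 6 over all windows. The *Tubb3* window held 21, and that of *Stmn3* held 3 and no GGGCGG. Both a higher and a lower gene thus had windows rich in CpG, and a match of letters is not a binding site.

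The rest of the microtubule system was followed with lists of 149 other genes, of which 136 were tested. In Ins/Ins 31 were higher, 51 lower, and 54 not past the threshold, and in Ins/Del 35 were higher, 51 lower, and 50 not. Both mutants together gave 30 genes that were higher in both (22.1%) and 48 that were lower in both (35.3%), beside 25.6% and 26.7% of all genes tested. The median log2 fold change over the 136 was -0.09 in Ins/Ins and -0.06 in Ins/Del. The p-values in the following paragraphs are from edgeR's quasi-likelihood test, adjusted over all genes. Most of the genes named there were picked for the size of their change against the control in this same fit. Their p-values against the control are therefore a description and not a separate test.

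Among the other tubulins, 5 of the 14 tested were higher in both mutants and 5 lower. *Tuba3a*, *Tuba3b*, and *Tubb2a* were over 2-fold higher, with *Tubb2a* at log2 fold changes of 1.16 ± 0.061 (adjusted p = 1.49e-19) and 1.31 ± 0.060 (adjusted p = 1.94e-21). Of the 50-base words of *Tubb2a*, 49.6% also occurred in other genes, mostly *Tubb2b*. The uncertain split of reads between these genes applies to its values too, and the standard errors do not include it. *Tubb4a*, a beta-tubulin of mature neurons and oligodendrocytes, was lower, at -1.75 ± 0.22 (adjusted p = 1.04e-08) and -1.59 ± 0.22 (adjusted p = 4.79e-08). *Tubb5*, the main beta-tubulin of dividing cells, stood at 41040 ± 1586 normalized counts (mean ± SD) for the control, with log2 fold changes of -0.24 and -0.36. The summed normalized count of the listed tubulins ranged from 65240 to 68950 in the control libraries, from 63280 to 64300 in Ins/Ins, and from 62580 to 63580 in Ins/Del. The only other stathmin tested, *Stmn1*, was higher, at 0.36 ± 0.036 (adjusted p = 2.35e-11) and 0.48 ± 0.035 (adjusted p = 6.01e-15).

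Of the other microtubule-associated proteins, 4 of 28 were higher in both mutants and 10 lower. The genes over 2-fold were both lower, *Map7d3* (log2 fold changes -1.87 and -2.13), of the MAP7 family that recruits kinesin-1, and *Clip3* (-1.30 and -1.51), a CAP-Gly domain protein. Of 29 kinases and phosphatases that act on tau, 8 were higher and 9 lower in both. *Mark1*, a kinase that releases tau from microtubules, was at -1.54 ± 0.11 (adjusted p = 1.99e-15) and -1.31 ± 0.11 (adjusted p = 7.46e-14). *Ppp2r2c*, a regulatory subunit of the phosphatase PP2A, was at 1.40 ± 0.093 (adjusted p = 2.32e-16) and 1.74 ± 0.089 (adjusted p = 7.14e-20). The main tau kinases *Gsk3b* (-0.07, adjusted p = 0.12, and -0.11, adjusted p = 0.0144) and *Cdk5* (-0.11, adjusted p = 0.285, and -0.04, adjusted p = 0.705), named here after their values were seen, did not pass.

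Of 27 severing and tubulin-modifying enzymes, 7 were higher and 8 lower in both mutants. *Fign*, a severing enzyme, had log2 fold changes of -2.03 ± 0.13 and -2.90 ± 0.14, *Katnal2*, a katanin-like gene, -1.34 and -1.75, and *Ttll13*, a tubulin polyglutamylase, 1.66 and 1.98. Of 7 folding factors *Tbcd* alone passed, at 0.21 and 0.23. More kinesins were lower than higher, with 8 of 17 lower in both mutants and 1 higher. *Kif1a*, the motor of synaptic vesicle precursors, fell from a control mean of 2319 ± 50.9 normalized counts (SD, n = 3) to 164 ± 10.5 in Ins/Ins and 120 ± 7.37 in Ins/Del, or log2 fold changes of -3.81 ± 0.060 (adjusted p = 2.27e-36) and -4.28 ± 0.064 (adjusted p = 2.58e-37). *Kif21a* was at -1.51 and -1.80.

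Neuronal intermediate filaments and growth cone genes were mostly lower, with 8 of 13 lower in both mutants and 3 higher. *Gap43*, the growth cone protein, had log2 fold changes of -2.78 ± 0.20 (adjusted p = 4.85e-15) and -2.45 ± 0.20 (adjusted p = 4.35e-14). *Nefm*, the middle neurofilament, was at -2.27 and -1.43, and *Dpysl2*, a collapsin response mediator, at -1.76 and -2.04. *Nefm* and *Nefl* overlap on opposite strands. *Nefh*, the heavy neurofilament, was higher, at 0.80 and 0.99, as were *Prph* (0.54 and 0.85) and *Dpysl3* (0.63 and 0.99). All 7 tested listed genes on chromosome 14 were lower in both mutants, *Nefm*, *Nefl*, and *Dpysl2* among them. On that chromosome 59.9% of 461 tested genes were lower in both mutants, and the part of this in the list counts was not tested. Without these 7 genes, 75 listed genes passed in Ins/Ins (31 higher and 44 lower) and 79 in Ins/Del (35 higher and 44 lower). None of the 10 main genes is on chromosome 14.

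**Figure D5:**
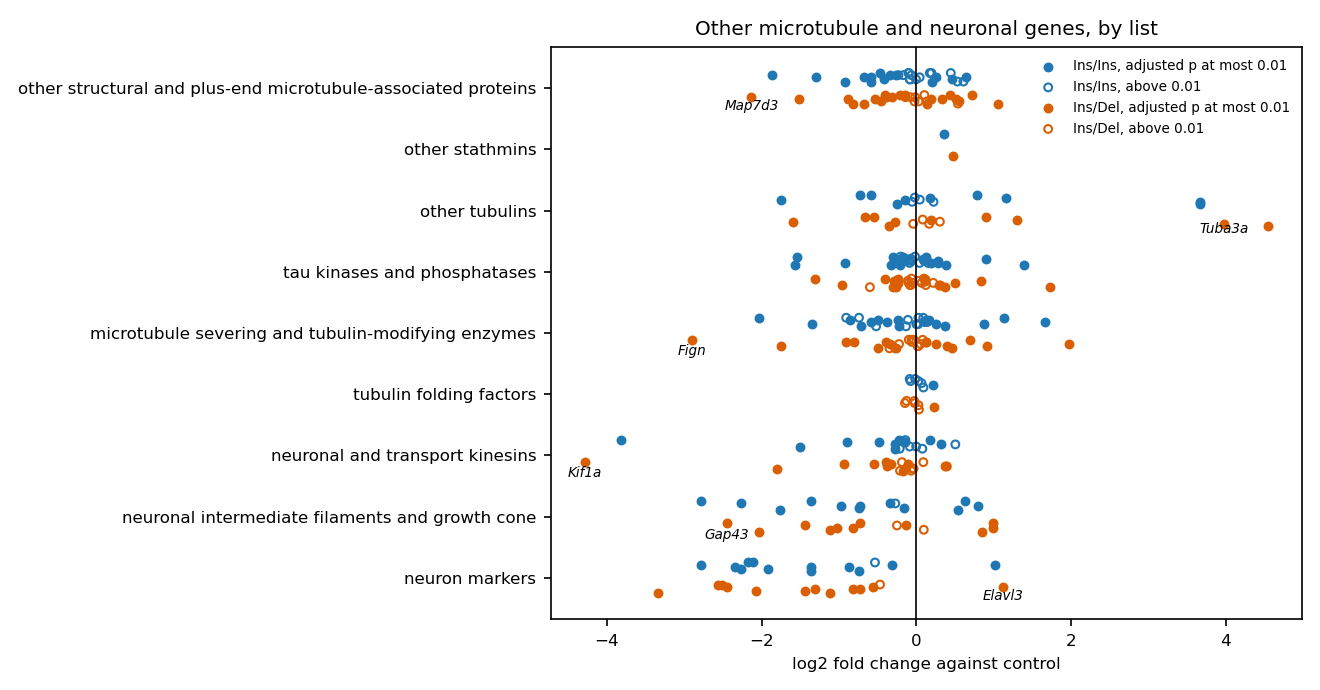
Log2 fold change against the control (horizontal axis) of each tested gene of 8 lists and of the neuron markers (vertical axis), in Ins/Ins (blue) and Ins/Del (orange), with filled points for an adjusted p of at most 0.01. *Tuba3a*, at 3.67 and 3.98, and *Tuba3b* stand far to the right of the other genes, *Kif1a* far to the left at -3.81 and -4.28, and the neuron markers are mostly left of 0. *Gap43*, *Nefl*, *Nefm*, and *Ina* are in both of the last 2 lists.

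Between the mutants 13 of the 136 listed genes were higher in Ins/Del and 6 lower, beside 6.17% and 4.64% of all genes. *Tuba3a* differed by a log2 value of 0.32 (adjusted p = 6.55e-10), and *Fign* by -0.87 (adjusted p = 0.000686). *Kif1a*, already low in Ins/Ins, was lower still in Ins/Del, by -0.47 (adjusted p = 0.00054). Without Ins/Ins replicate 1 the count of 19 became 11, and without Ins/Del replicate 2 it became 12.

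Markers of neurons and of neural progenitors were followed in the same libraries. Of 15 neuron markers 13 were tested, and 11 were lower in both mutants and 1, *Elavl3*, was higher, at log2 fold changes of 1.02 and 1.13. *Syp*, a synaptic vesicle protein, was at -2.17 and -2.51, and *Gad1*, which makes the transmitter GABA, at -2.34 and -1.31. *Dcx* had at most 4 reads and *Slc17a6* at most 2 in any library, and the summed normalized count of the markers ranged from 4850 to 4893 in the control, 2996 to 3032 in Ins/Ins, and 2671 to 2783 in Ins/Del. Most of this sum was *Ina*, with means of 3079 in the control, 1847 in Ins/Ins, and 1429 in Ins/Del. Of 10 neural progenitor markers 3 were tested. *Pax6* was at -3.19 and -4.50 and *Nes* at -2.93 and -3.08, while *Sox1* did not pass (-0.09, adjusted p = 0.506, and 0.27, adjusted p = 0.0337), and the other 7 had at most 9 reads in any library. The summed level of this list was 2569 to 2576 in the control, 418 to 445 in Ins/Ins, and 385 to 427 in Ins/Del. *Mapt*, *Tubb3*, *Map1a*, and *Map6* were thus higher in libraries where most tested markers of these 2 cell types were lower.

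The ESC markers were present in every library, with 7 of 10 higher and 2 lower in Ins/Ins, and 6 higher and 1 lower in Ins/Del. Of all genes, 29.0% were higher and 29.4% lower in Ins/Ins, and 30.6% and 31.9% in Ins/Del. *Nanog* was at log2 fold changes of 0.41 and 0.43 and *Zfp42* at 0.90 and 1.06. The lower ones were *Utf1*, at -0.48 and -0.72, and, in Ins/Ins only, *Pou5f1*, at -0.12. Markers of mesoderm and fibroblast-like cells were mostly lower, with 6 of 8 lower in both mutants and a summed normalized count of 3393 to 3621 in the control, 470 to 506 in Ins/Ins, and 369 to 419 in Ins/Del. Most of this sum in the control was *Tagln* and *Acta2*, with control means of 1994 and 863. *Acta2*, smooth muscle actin, was at -5.87 and -5.98. *Eomes* went the other way, at 0.74 and 0.49, and *Mixl1* did not pass in either mutant (0.73 and 0.29). Trophectoderm markers were lower for 4 of 5 tested in both mutants, with a summed normalized count of 4782 to 5251 in the control, 2401 to 2556 in Ins/Ins, and 1555 to 1630 in Ins/Del. The remaining tested marker, *Tfap2c*, was higher in Ins/Ins (0.48) and lower in Ins/Del (-0.21). Of 5 primitive endoderm markers tested 2 were lower and 1, *Sox7*, higher in both, and 3 were higher in Ins/Del. The mesoderm and trophectoderm markers were thus mostly lower in the libraries where *Map1b* and *Map2* were lower, and their part in those values was not tested.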

How the data were processed

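RNA-seq libraries of control, Rbbp4Ins/Ins, and Rbbp4Ins/Del E14 ESCs were grouped by genotype label, 3 per line. The labels do not say that libraries came from separate cultures, so p-values measure the spread between libraries. The authors made Kapa mRNA libraries, aligned paired-end reads to mm10 with STAR 2.7.3, and counted them with HTSeq. The annotation and strand setting are not given in the sources used here. The deposited values are raw whole-number counts per gene symbol, 15838064 to 21366868 per library, and all 9 libraries were used.

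The counts were normalized with TMM factors, from 0.9927 to 1.016, filtered with filterByExpr, and fitted with edgeR 4.0.16 (glmQLFit and glmQLFTest, R 4.3.3) on all 9 libraries without covariates. P-values were adjusted by the Benjamini-Hochberg method over 14125 genes, with a threshold of 0.01. Standard errors are the log2 fold change over the root of the F statistic. The 95% intervals are ± 1.96 standard errors, a normal approximation that is somewhat narrower than the F test implies. Normalized counts are scaled to the mean effective library size, 18249537. The fit was tested on simulated counts. Principal components separated control from mutants first. DESeq2 1.42.0 was an alternative, as were its size factors, total counts, no count filter, a fit of 2 groups at a time, a block for the replicate number, an adjusted p of 0.05, and each library left out.

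The 10 genes and the lists were chosen with earlier results of these data known. Genes named are the 10, *Rbbp4*, the 5 most like *Mapt*, the flanking genes, and defining markers. Up to 4 genes per list were also named, if they passed in both mutants beyond 2-fold with a mean count above 20. Others were added after their values were seen (*Stmn1*, *Tubb5*, *Gsk3b*, *Cdk5*, *Tbcd*, *Nefh*, *Nefl*, *Prph*, *Dpysl3*, *Ina*, *Eomes*, *Mixl1*, *Tfap2c*, *Gm10558*, *Ppip5k1*). Positions, exon lengths, and coding sequences are from GENCODE M21 on GRCm38, which matched 24366 of 25239 symbols, and promoter windows from RefSeq, which matched 6 of the 10 genes.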

Additional observations from a re-analysis of the deposited data

Results flagged for a closer look

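The differences of *Mapt*, *Map6*, and *Tubb3* from the control were not the same in the 2 mutants, by a test of the difference between Ins/Del and Ins/Ins (edgeR's quasi-likelihood test, adjusted over all genes). *Mapt* was higher by a log2 value of 0.17 in Ins/Del, *Map6* by 0.30, and *Tubb3* by 0.42. The calls of *Mapt* and *Map6* depended on single libraries, and that of *Tubb3* did not.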

How the results depend on the processing

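The log2 fold changes of the 10 genes kept their direction under all 15 alternative fits in each comparison. Without 1 library, the log2 fold change of *Mapt* ranged from 3.70 to 3.81 in Ins/Ins against control and from 3.87 to 3.98 in Ins/Del against control, highest without control replicate 2. Its difference between the mutants ranged from 0.156 to 0.184. Between the mutants 1527 genes, 3 of the 10, and 19 listed genes passed the threshold. With a limit of 0.05 on the adjusted p these counts were 2682, 6, and 29, and without 1 library they ranged from 988 to 1646, from 1 to 3, and from 11 to 21. Against the control, *Stmn3* alone of the 10 lost its call in any alternative, with DESeq2 in Ins/Ins or without single libraries. Replacing the profile difference by Pearson correlation left 0 of the 5 genes most like *Mapt*. Samples with the same replicate number did not deviate together (correlations from -0.028 to 0.056), so the numbers do not pair samples. With the replicate number as a block, 8225, 8795, and 1499 genes passed in the 3 comparisons, in place of 8252, 8829, and 1527, with 10, 10, and 3 of the 10 genes and 82, 87, and 17 listed genes. Leaving out chromosome 14 was chosen after seeing the data and gave 75, 79, and 17 listed genes. Lengths moved the levels per kilobase. The depth limits *Stmn3*, *Thrb*, and *Tuba3b*, which had few reads in the control.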
